A study of Mus musculus with 15 samples.

Results

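The genes described here are 47 of the 54232 genes in a count table of the mouse secondary palate, and their products build, assemble or anchor the moving cilium. They were taken from a list of named genes, 45 by their symbol and 2, *Dnai1* and *Dnai2*, through synonyms in RefSeq (the table's annotation calls them Dnaic1 and Dnaic2). The list was drawn up with earlier results of these data known. *Tekt5* was known to be higher at embryonic day 14.5 (E14.5) than at E13.5, and *2610028H24Rik* and *Tmem212* to be among the genes that rose most from E14.5 to E15.5, so the members' values in both of those contrasts are given as a description, without a test.

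Palatal shelves were dissected from wild-type (WT) mice at 5 stages, each day from E13.5 through to E16.5 and at birth (P0), and their RNA was sequenced in bulk. There were 3 libraries per stage, and since each was made from the palates of 3 embryos, replicates differ as pools, not as single animals. All groups carried the same genotype and none was treated. The 15 libraries held 21.5 to 69.02 M (1e6) counts, and levels are given as counts scaled to a total of 1 M (CPM). A count of 3 was set as the limit of detection, the floor, and lay between 0.0435 and 0.14 CPM. The floor covers counting error only.

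A motile cilium is a beating, hair-like projection built around a ring of microtubule doublets, the axoneme. Outer and inner dynein arms on the doublets pull neighbouring doublets past each other, and radial spokes, the central pair and the nexin links turn this sliding into a regulated beat. In the head, motile cilia cover the respiratory epithelium that forms on the nasal side of the palate and the nasal cavity, where they move mucus, and they also occur on the cells of the choroid plexus and the ependyma of the brain.

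The tissue label was checked first. All 6 palate genes examined (*Osr2*, *Meox2*, *Shox2*, *Msx1*, *Pax9* and *Tbx22*) had over 3 counts in every library, and so did all 12 epithelial markers examined. *Tbx22* came down to 5 counts (0.152 CPM). This bar shows presence only and cannot tell tissues apart, since at least 10 of 12 choroid plexus markers also passed it in every library. Libraries also held transcripts that mark other tissues. The summed level of 12 choroid plexus markers was 1467 and 815 CPM in E14.5 replicates 1 and 3 but 42.6 CPM in E14.5 replicate 2, and it was 90.2, 524 and 287 CPM at P0. Over the other 9 libraries it ranged from 41.3 to 158 CPM. *Ttr*, which encodes the transport protein transthyretin and is the defining transcript of that epithelium, made up most of the sums of E14.5 replicates 1 and 3 and P0 replicate 2, with 3.44, 2.82 and 88.4 (E13.5), 1224, 8.64 and 673 (E14.5), 6.83, 1.67 and 0.738 (E15.5), 2.201, 2.74 and 1.76 (E16.5), 1.69, 362 and 98.4 (P0) CPM. Transcripts of 4 Y-linked genes were nearly lacking (7 to 12 counts) in all 3 E16.5 libraries, and they had 15 to 28 counts in E13.5 replicate 1, E15.5 replicate 1 and P0 replicate 2, against at least 2976 in each of the other 9 libraries, so stage and the share of males in a pool cannot be told apart at E16.5.

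All 47 genes passed the filter on low counts and were tested. In the 6 libraries of E13.5 and E14.5 alone, 42 reached 10 counts in at least 3 libraries, and *Dnah3*, *Tekt3*, *Tmem212*, *2610028H24Rik* and *Sntn* did not. These 5 passed through the later stages, where they were high. In bulk tissue, fewer cells of a type and less RNA per cell cannot be told apart, and this holds for every level below.

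Promoters are shown as a description of sequence, and their part in the members' levels was not tested. Regulatory factor X (RFX) proteins, which bind the X-box, and the forkhead factor FOXJ1 are known regulators of genes for cilia. Of the 47 genes, 40 matched a promoter in RefSeq on GRCm38.p6, taken as 250 bases before to 50 bases after a transcription start. The single X-box site GTTGCC, searched on both strands, occurred in 18 of the 40 genes (45%), against 14.1% of 27025 genes. A paired form, GTNNCCNGGNNAC with 1, 2 or 3 bases between its arms (GTNNCCNNGGNNAC and GTNNCCNNNGGNNAC being the longer ones), occurred in 10 (25%), against 4.0% of all genes. A pair can contain a single site, so these counts overlap. The letters TGTTTAC of a forkhead site occurred in 5 (12.5%) against 4.05%, namely *2610028H24Rik*, *Tekt3*, *Ak7*, *Sntn* and *Cfap43*. A match describes the letters only and is not evidence of binding.

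The following 60-base windows lie upstream of a RefSeq start. They read 5′ to 3′ on the gene's strand with X-box pairs and single sites in capitals. The first 5 hold a pair and the last 2 hold single sites only. They are at chr4:34730207-34730266 (minus strand), chr6:124779855-124779914 (minus strand), chr10:76449009-76449068 (plus strand), chr17:25471407-25471466 (plus strand), chr19:47837397-47837456 (minus strand), chr11:72361885-72361944 (minus strand) and chr14:13670783-13670842 (plus strand) on GRCm38.p6. Those of *Cfap43* and *Tekt1* precede a start that lies inside the gene as GENCODE annotates it.
Cfap206: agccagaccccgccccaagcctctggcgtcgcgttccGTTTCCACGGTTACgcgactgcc
Lrrc23: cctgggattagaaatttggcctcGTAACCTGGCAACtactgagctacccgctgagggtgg
2610028H24Rik: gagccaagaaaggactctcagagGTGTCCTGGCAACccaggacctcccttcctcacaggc
Tekt4: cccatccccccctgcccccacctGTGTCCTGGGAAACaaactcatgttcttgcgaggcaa
Cfap43: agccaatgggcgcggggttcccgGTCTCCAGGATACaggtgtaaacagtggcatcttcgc
Tekt1: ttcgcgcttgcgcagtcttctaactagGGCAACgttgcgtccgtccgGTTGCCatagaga
Sntn: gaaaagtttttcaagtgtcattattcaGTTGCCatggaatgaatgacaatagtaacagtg
In these windows the marked match began 23 bases before the start in *Cfap206*, 164 in *Lrrc23*, 49 in *2610028H24Rik*, 160 in *Tekt4*, 72 in *Cfap43* and 66 in *Sntn*. *Tekt1* had single sites on both strands, the farther one 35 bases before its start.

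The question of the time course was when these genes are expressed. The median member was low at E13.5, somewhat higher at E14.5 and far higher from E15.5 on. Not every member followed it, since *Tppp3*, *Cfap43*, *Mns1* and *Tekt2* already had means of 35.1, 28.8, 24.4 and 14.9 CPM at E13.5. The median of the 47 levels in each library was 1.03, 1.0 and 1.14 CPM (E13.5), 4.003, 1.53 and 2.402 (E14.5), 9.94, 26.2 and 21.01 (E15.5), 28.3, 24.3 and 20.4 (E16.5), and 22.8, 52.1 and 23.8 (P0). By the stage of the highest mean, 41 genes peaked at P0, 5 at E15.5 (*Zmynd10*, *Ccdc39*, *Lrrc23*, *Spag17* and *Mns1*) and 1, *Tekt5*, at E16.5. That tally rested on P0 replicate 2, and without it 22 genes peaked at P0, 15 at E15.5 and 10 at E16.5. The 6 earlier libraries averaged under 10% of the 9 later ones in 27 genes and over 25% in 10. In 41 of 47 genes every library of E15.5, E16.5 and P0 lay above every library of E13.5 and E14.5, beside 13.2% of all 22151 tested genes. The exceptions were *Dnah9*, *Tekt2*, *Tekt5*, *Cfap53*, *Mns1* and *Cfap43*. This split spans the step from E14.5 to E15.5, which was used in choosing members, so the count is a description. *Dnah3*, *Tekt3*, *Tmem212*, *2610028H24Rik* and *Sntn*, which passed the filter only through the later stages, are among the 41.

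**Figure D1:**
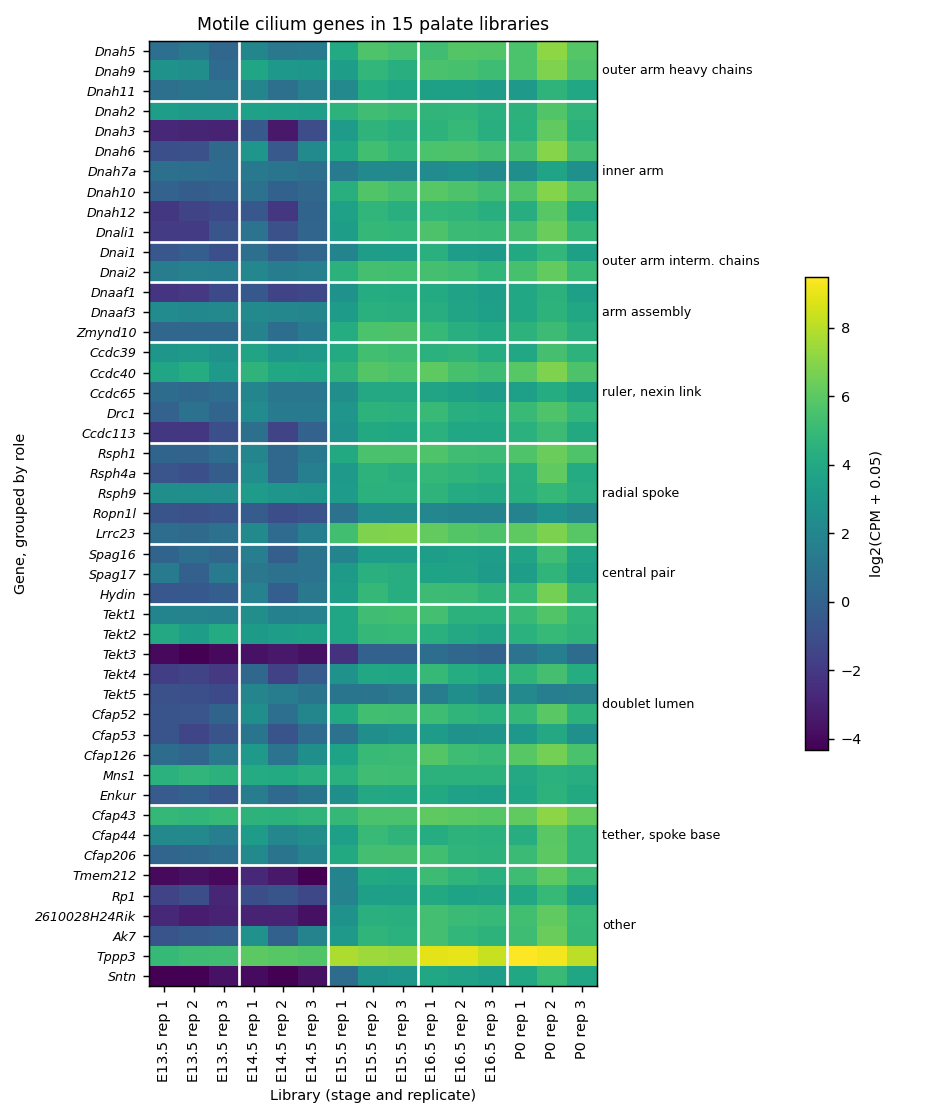
Level of each of the 47 genes (rows, grouped by role) in each of the 15 libraries (columns, by stage and replicate), as log2 of CPM plus 0.05. Most rows change from low to high between the E14.5 and E15.5 columns. E15.5 replicate 1 is the lowest of its stage in 45 genes and P0 replicate 2 the highest of its stage in 45.

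Between P0 and E13.5, contrasted in a fit over all genes, 46 of the 47 genes were higher (edgeR's quasi-likelihood test, Benjamini-Hochberg adjusted p under 0.05 over 22151 genes) and none was lower. Of all tested genes 29.8% were higher and 56.6% changed in either direction. The counts by role given below are parts of the 46 and stand beside the same share of 29.8%. Without *Tekt5* the count was 45 of 46. Among the 42 genes that reached 10 counts in 3 early libraries it was 41, with *Tekt5* still among them. The other 5, which passed the filter only where they were high, had to differ in this contrast. The contrast also spans the step from E14.5 to E15.5, which was used in choosing members. The median log2 fold change was 4.87 over the 47 genes and 4.45 over those 42, against 0.03 over all tested genes. *Tekt3*, *Tmem212* and *Sntn* had at most 3 counts in every E13.5 library. Set against the floor of 3 counts, their log2 changes of 7.46, 11.03 and 10.74 became 5.52, 9.95 and 8.81. The median of the 47 stayed 4.87, as it had to with these values still above it. The gene that did not pass was *Mns1*. Markers of other cells moved in this contrast too. By the same test 8 of the 9 nasal secretory markers that passed the filter (of 12) were higher, with a median log2 fold change of 8.48, and so were 8 of 10 olfactory neuron markers (2.75), 9 of 12 epithelial markers (2.10) and 4 of 12 choroid plexus markers (2.01, with 1 lower). Their part in the members' change was not tested.

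**Figure D2:**
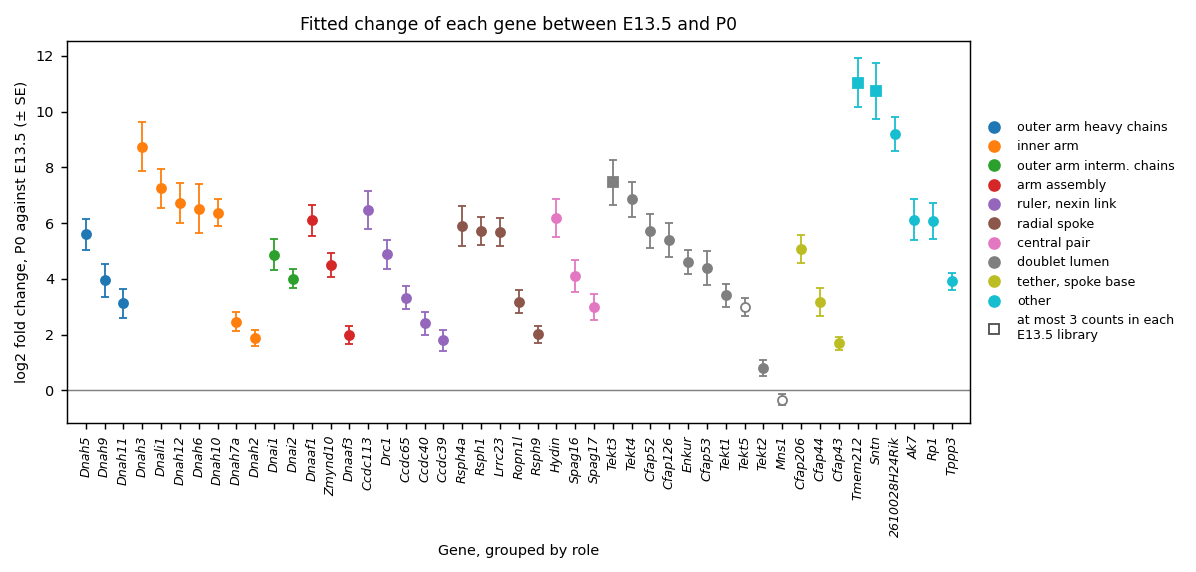
Fitted log2 fold change of P0 against E13.5 with its standard error for each of the 47 genes, grouped and coloured by role. Filled symbols passed the test, *Mns1* (-0.34) did not, and *Tekt5* is open because it was chosen on libraries of this contrast. *Dnah3*, *Tekt3*, *Tmem212*, *2610028H24Rik* and *Sntn* are filled, but they passed the filter only where they were high and had to differ. Squares mark *Tekt3*, *Tmem212* and *Sntn*, whose fitted size depends on the prior count since E13.5 held at most 3 counts a library.

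The outer dynein arms carry the motors that set the beat frequency, and all 5 of their members were higher at P0 than at E13.5. *Dnah5* (chr15:28203752-28472052, plus strand) encodes an outer arm heavy chain whose loss causes primary ciliary dyskinesia. Its CPM were 1.62, 2.31 and 1.14 (E13.5), 4.03, 2.29 and 2.402 (E14.5), 17.3, 51.97 and 40.3 (E15.5), 38.1, 55.97 and 53.5 (E16.5), 46.8, 141 and 57.5 (P0). Every later library lay above every earlier one, and P0 replicate 2 stood far above its stage. The fitted log2 fold change was 5.59 ± 0.56 (SE), adjusted p = 1.07e-05 by edgeR's quasi-likelihood test. *Dnah9*, the partner heavy chain of the distal axoneme, had 6.39, 5.68 and 1.38 (E13.5), 14.1, 8.26 and 7.93 (E14.5), 10.4, 28.4 and 20.3 (E15.5), 46.5, 44.04 and 36.7 (E16.5), 47.1, 112 and 48.4 (P0) CPM. The lowest E15.5 library lay below the highest E14.5 library, and the groups of E16.5 and P0 lay above all others. *Dnah11*, the heavy chain of the proximal axoneme, had the lowest level per kb of exon length of the 3 heavy chains over the 9 later libraries, 0.911 CPM per kb, against 3.57 for *Dnah5* and 2.75 for *Dnah9*. The intermediate chains *Dnai1* and *Dnai2*, which hold the heavy chains together, were at 4.87 and 8.67 CPM per kb. Their log2 fold changes from E13.5 to P0 were 4.87 ± 0.55 (SE) and 4.01 ± 0.33 (SE).

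All 7 inner arm members were higher at P0 than at E13.5, though *Dnah3*, which passed the filter only where it was high, had to differ. The inner arms shape the waveform of the beat. *Dnah3* (chr7:119922671-120095280, minus strand), an inner arm heavy chain, had 7, 6 and 5 counts at E13.5 and 45, 3 and 30 counts at E14.5, or 0.1003, 0.0845 and 0.0743 and 0.701, 0.0454 and 0.421 CPM. It had 9.94, 24.8 and 20.6 CPM at E15.5, 24.6, 30.2 and 20.4 at E16.5 and 22.5, 68.1 and 23.5 at P0. Within the early libraries E14.5 replicates 1 and 3 were the highest, and no later library overlapped them. *Dnali1*, a light intermediate chain of the inner arm, was the most abundant of this group per kb over the later libraries (17.5 CPM per kb) and *Dnah6* came next (3.58). *Dnali1* had 0.215, 0.211 and 0.579 (E13.5), 1.87, 0.484 and 1.07 (E14.5), 10.4, 29.6 and 27.8 (E15.5), 48.8, 34.2 and 32.6 (E16.5), 43.2, 80.6 and 29.5 (P0) CPM, with a log2 fold change from E13.5 to P0 of 7.25 ± 0.71 (SE), adjusted p = 9.80e-06 by edgeR's quasi-likelihood test. Its 3 E13.5 libraries lay below every library of the later 3 stages, and so did its E14.5 libraries. *Dnah7a* was the lowest member of all per kb (0.46), and since the near-identical *Dnah7b* and *Dnah7c* can share its reads, its level is uncertain. *Dnah2* was the least changed of the inner arm genes, with 1.88 ± 0.28 (SE), and already stood at 9.34 ± 1.09 CPM (SD, n = 3) at E13.5.

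Dynein arms are assembled in the cytoplasm before they are carried into the cilium, and the 3 assembly factors were all higher at P0 than at E13.5. *Zmynd10* (chr9:107547298-107551319, plus strand), a cochaperone of this assembly, had 1.15, 1.197 and 1.22 (E13.5), 3.61, 1.53 and 2.54 (E14.5), 18.9, 47.1 and 49.03 (E15.5), 30.2, 20.4 and 17.6 (E16.5), 24.2, 35.2 and 20.8 (P0) CPM. It was highest in E15.5 replicates 2 and 3 and lower in every E16.5 and P0 library than in those, while E15.5 replicate 1 lay within the later range. *Dnaaf1* rose from 0.242 ± 0.114 CPM at E13.5 to 16.7 ± 6.42 at P0 (SD, n = 3 each), with a log2 fold change of 6.10 ± 0.55 (SE), adjusted p = 6.25e-06 (edgeR's quasi-likelihood test). *Dnaaf3* was already at 4.55 ± 0.395 CPM at E13.5 (SD, n = 3), and its log2 fold change was 2.00 ± 0.32 (SE). It shares 3.87% of its exon bases with *Tnni3*, a cardiac troponin gene on the same strand.

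The ruler and nexin link genes set the repeat along the doublets and join them, and all 5 were higher at P0 than at E13.5. *Ccdc113*, the most abundant of them per kb over the later libraries (14.3 CPM per kb), had 0.186, 0.183 and 0.461 (E13.5), 1.64, 0.303 and 0.955 (E14.5), 6.76, 16.8 and 15.4 (E15.5), 22.2, 15.5 and 14.8 (E16.5), 22.6, 34.7 and 16.7 (P0) CPM. Its early libraries were all under 2 CPM and its later ones all over 6. *Ccdc39* and *Ccdc40* encode the partner proteins of the molecular ruler. *Ccdc39* had 7.77, 8.85 and 6.68 (E13.5), 13.3, 7.54 and 8.41 (E14.5), 17.1, 38.6 and 36.7 (E15.5), 22.2, 24.8 and 18.5 (E16.5), 14.6, 42.3 and 23.8 (P0) CPM, so it was already well detected at E13.5, and E15.5 replicate 1 and P0 replicate 1 were the lowest of the later libraries. The log2 fold changes from E13.5 to P0 were 1.79 ± 0.39 (SE) for *Ccdc39* and 2.41 ± 0.41 (SE) for *Ccdc40*, smaller than the 4.88 ± 0.51 (SE) of *Drc1* and 3.33 ± 0.42 (SE) of *Ccdc65*, both of which encode core proteins of the nexin link.

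All 5 radial spoke genes and all 3 central pair genes were higher at P0 than at E13.5. *Rsph1* (chr17:31255019-31277356, minus strand), a spoke head protein, had 1.03, 1 and 1.46 (E13.5), 4.03, 1.21 and 2.35 (E14.5), 16.7, 45.1 and 45.2 (E15.5), 51.2, 37.3 and 34.7 (E16.5), 52.01, 81.3 and 50.3 (P0) CPM. No later library came near the early ones, and E15.5 replicate 1 was the lowest of the later libraries. *Lrrc23*, which encodes a spoke protein, was the second most abundant member per kb over the later libraries (43.3 CPM per kb), with 1.48, 1.31 and 1.75 (E13.5), 4.55, 1.39 and 3.09 (E14.5), 39.9, 111 and 114 (E15.5), 72.8, 55.1 and 49.9 (E16.5), 66.7, 106 and 60.3 (P0) CPM. Its E15.5 replicates 2 and 3 were the highest of all libraries. *Ropn1l* was the lowest of the spoke group (4.52 CPM per kb), and *Rsph9* was the spoke gene with the highest early level (4.31 CPM per kb over E13.5 and E14.5). *Hydin* (chr8:110266977-110610253, plus strand), which encodes a very large projection of the central pair, had 0.631, 0.634 and 0.832 (E13.5), 3.38, 0.832 and 2.26 (E14.5), 10.5, 29.5 and 18.96 (E15.5), 34.8, 33.5 and 25.5 (E16.5), 30.1, 95.5 and 25.5 (P0) CPM. All later libraries lay above the early ones, and P0 replicate 2 was the highest. *Spag16* was the most abundant of the central pair genes per kb (2.01 CPM per kb) and *Spag17* the least (1.73).

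The doublets are stabilised from within by tektins and other inner proteins, and 9 of these 10 genes were higher at P0 than at E13.5, *Mns1* being the exception. Of the 9, *Tekt5* was chosen on libraries of this contrast and *Tekt3* passed the filter only where it was high, so neither counts as a test. *Tekt1* (chr11:72344722-72362442, minus strand) had 3.63, 3.54 and 3.34 (E13.5), 5.62, 3.33 and 3.44 (E14.5), 14.2, 38.3 and 39.5 (E15.5), 40.3, 23.5 and 22.1 (E16.5), 31.1, 52.1 and 28.5 (P0) CPM. Its later libraries all lay above its earlier ones, which hardly differed except for E14.5 replicate 1, and its log2 fold change from E13.5 to P0 was 3.41 ± 0.42 (SE), adjusted p = 3.72e-05 (edgeR's quasi-likelihood test). *Tekt4* had 0.244, 0.3099 and 0.193 (E13.5), 1.23, 0.272 and 0.7303 (E14.5), 6.42, 15.4 and 13.8 (E15.5), 30.7, 18.6 and 15.4 (E16.5), 26.2, 42.2 and 18.7 (P0) CPM and *Tekt3* had 1, 0 and 1 counts at E13.5 and 2, 3 and 2 counts at E14.5 against 1.86, 3.02 and 1.39 CPM at P0. *Tekt3* was the only tektin at or under the floor in all 6 early libraries. The order of the tektins over the 9 later libraries was *Tekt1* (19.8 CPM per kb), *Tekt4* (13.6), *Tekt2* (11.8), *Tekt5* (1.78) and *Tekt3* (0.766).

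*Tekt2*, *Tekt5* and *Mns1* departed from the common course. *Tekt2* had 15.9, 10.6 and 18.2 (E13.5), 9.17, 10.8 and 11.4 (E14.5), 14.2, 28.8 and 30.4 (E15.5), 21.5, 15.7 and 13.2 (E16.5), 22.8, 30.5 and 25.4 (P0) CPM. Its E13.5 libraries overlapped its later ones, and its E14.5 libraries were lower than all others but E13.5 replicate 2. The log2 fold change from E13.5 to P0 was 0.81 ± 0.29 (SE), adjusted p = 0.0292 by edgeR's quasi-likelihood test, and the call was lost without E13.5 replicate 1 (adjusted p = 0.0583), E13.5 replicate 2 (0.120) or P0 replicate 2 (0.0869). *Mns1*, a doublet protein also needed in sperm tails, had 22.3, 27.4 and 23.6 (E13.5), 18.1, 17.3 and 20.5 (E14.5), 21.8, 37.6 and 36.4 (E15.5), 23.2, 22.96 and 23.5 (E16.5), 15.9, 22.7 and 19.2 (P0) CPM. Only E15.5 replicates 2 and 3 stood above the range of the other libraries, and its log2 fold change was -0.34 ± 0.20 (SE), adjusted p = 0.154 (edgeR's quasi-likelihood test). *Tekt5* had 0.487, 0.465 and 0.386 (E13.5), 3.79, 2.85 and 1.91 (E14.5), 2.01, 1.95 and 2.23 (E15.5), 2.85, 5.699 and 3.69 (E16.5), 4.44, 2.93 and 3.22 (P0) CPM. Its step fell between E13.5 and E14.5, the contrast on which it was chosen, and its E14.5 libraries overlapped those of every later stage.

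**Figure D3:**
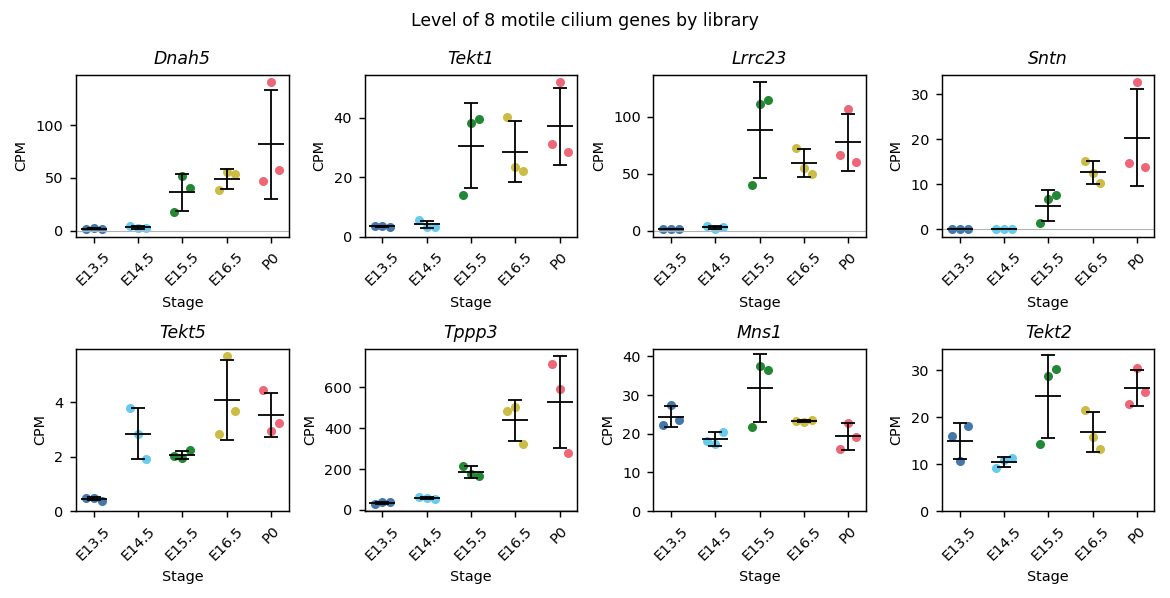
CPM of 8 genes in each of the 15 libraries, by stage, with the 3 libraries of a stage as points and their mean ± SD as a bar, each panel on its own linear axis. *Tekt1* and *Dnah5* step up between E14.5 and E15.5, *Tekt5* between E13.5 and E14.5, and *Mns1* stays between 15.9 and 37.6 CPM throughout.

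The 3 genes for proteins that tether or anchor the axoneme's arms and spokes were all higher at P0 than at E13.5. *Cfap206*, a spoke base protein, had 1.07, 1.16 and 1.52 (E13.5), 4.61, 1.91 and 3.58 (E14.5), 16.6, 40.5 and 42.9 (E15.5), 40.04, 26.3 and 24.3 (E16.5), 33.9, 64.1 and 27.2 (P0) CPM, and the later libraries lay clear of the early ones. *Cfap43* and *Cfap44* encode partner proteins of the tether of an inner arm. *Cfap43* had 29.3, 27.1 and 30.1 (E13.5), 23.9, 22.9 and 26.04 (E14.5), 29.3, 46.2 and 45.8 (E15.5), 65.6, 61.8 and 57.5 (E16.5), 69.98, 135 and 73.3 (P0) CPM. It was high from the start, its E15.5 replicate 1 matched its E13.5 libraries, and its E16.5 and P0 libraries lay above all others. Its log2 fold change from E13.5 to P0 was 1.69 ± 0.24 (SE), adjusted p = 9.66e-05 (edgeR's quasi-likelihood test), against 3.17 ± 0.50 (SE) for *Cfap44*.

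The remaining 6 genes were all higher at P0 than at E13.5, and 3 of them had very few early counts. These 3, *Sntn*, *Tmem212* and *2610028H24Rik*, passed the filter only where they were high and had to differ in this contrast. *Sntn* (chr14:13670876-13683148, plus strand), which encodes sentan, a protein of the ciliary tip, had 0, 0 and 2 counts at E13.5 and 1, 0 and 2 counts at E14.5. At E15.5 it had 1.42, 6.84 and 7.61 CPM, at E16.5 15.3, 12.5 and 10.3 and at P0 14.6, 32.8 and 13.8. *Tmem212* (chr3:27866066-27896368, minus strand), a membrane protein gene, had 1, 2 and 1 counts at E13.5 and 6, 3 and 0 counts at E14.5, then 3.71, 16.5 and 15.5 CPM at E15.5, 34.8, 25.6 and 21.2 at E16.5 and 36.8, 65.4 and 33 at P0. *Sntn* was at or under the floor in all 6 early libraries and *Tmem212* in 5 of them, and both were well above it in every later one. *2610028H24Rik* had 7, 4 and 5 counts at E13.5 and 5, 5 and 2 counts at E14.5, then 6.69, 21.9 and 21.01 CPM at E15.5, 40.5, 33.8 and 30.2 at E16.5 and 39.3, 68.6 and 30.2 at P0. All 9 later libraries stood clear of the 6 early ones, and E15.5 replicate 1 was the lowest of the 9. *Tppp3*, a tubulin polymerization factor also made by cells without motile cilia, was by far the most abundant member per kb over the later libraries (208 CPM per kb) and over the early ones (25.3). It had 30.7, 37.01 and 37.6 (E13.5), 63.3, 58.6 and 53.2 (E14.5), 216, 176 and 164 (E15.5), 486, 504 and 324 (E16.5), 712, 594 and 278 (P0) CPM. Each stage's lowest library lay above the highest library of the stage before it up to E16.5, and P0 overlapped E16.5. *Rp1*, a microtubule-binding gene best known from photoreceptors, was the least abundant of these 6 per kb (1.14).

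From E14.5 to E15.5, a contrast used in choosing members, the fitted log2 fold changes had a median of 2.76 over all 47 genes. They ran from -0.46 for *Tekt5* and 0.73 for *Cfap43* to 8.06 for *2610028H24Rik* and 8.27 for *Sntn*. These last genes had at most 5 counts in each E14.5 library, so the size of their change is uncertain. From E13.5 to E14.5, the contrast on which *Tekt5* was known, the median change was 0.89, and the values ran from -0.51 for *Tekt2* and -0.39 for *Mns1* to 2.41 for *Rsph4a*, 2.55 for *Dnah6* and 2.67 for *Tekt5*. In 16 of 47 genes every E14.5 library lay above every E13.5 library, beside 15.5% of all genes, and nothing is read from that count.

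Within E14.5, the median member and the summed choroid plexus markers put the 3 libraries in the same order, replicate 1, then 3, then 2. E14.5 replicate 1 was the highest of its stage in 40 of 47 genes, beside 47.8% of all tested genes, and replicate 2 the lowest in 33, beside 23.0%. The ratio of replicate 1 to replicate 2 had a median of 2.05 over the 46 genes with counts in replicate 2, against 1.04 over all tested genes, and the ratio of replicate 3 to replicate 2 a median of 1.19. Among genes with over 3 counts in replicate 2, the first ratio was widest for *Dnah6* (11.5), *Ak7* (6.83) and *Ccdc113* (5.403), and the second for *Dnah6* (7.296), *Dnah12* (5.64) and *Ak7* (3.91). *Dnah6* had 0.473, 0.493 and 1.29 (E13.5), 7.68, 0.666 and 4.86 (E14.5), 15.2, 38.9 and 28.2 (E15.5), 47.9, 49.2 and 40.7 (E16.5), 40.4, 125 and 40.6 (P0) CPM, so its 3 E14.5 libraries spanned more than an order of magnitude. *Sntn*, *Tmem212*, *Tekt3* and *2610028H24Rik* had at most 6 counts in every E14.5 library, including both with high choroid plexus markers. Set against E14.5 replicate 2 alone, the mean of the E15.5 libraries was 11.4-fold higher at the median of these 46 genes. The part of choroid plexus RNA in the E14.5 levels was not tested.

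**Figure D4:**
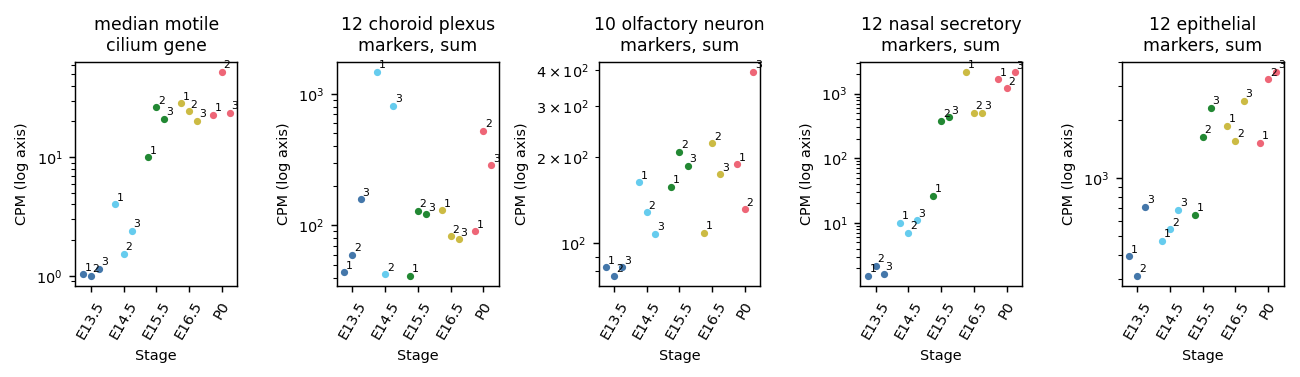
For each of the 15 libraries, the median CPM of the 47 genes beside the summed CPM of the choroid plexus, epithelial, nasal secretory and olfactory neuron markers, on log axes. E14.5 replicates 1 and 3 and P0 replicate 2 are high in choroid plexus markers, and E15.5 replicate 1 (9.94 CPM) is low in the 47 genes, in secretory markers (25.96 CPM) and in epithelial markers (644 CPM).

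E15.5 replicate 1 was the lowest of its stage in 45 of the 47 genes, all but *Tekt5* and *Tppp3*, beside 41.1% of all tested genes. Replicates 2 and 3 held 2.698 and 2.299 times its level at the median of the 47 genes, against 0.984 and 1.01 over all tested genes. The same library held 25.96 CPM of 12 nasal secretory markers against 377 and 432 CPM in the other E15.5 libraries, 644 CPM of 12 epithelial markers against 1643 and 2310, and 157 CPM of 10 olfactory neuron markers against 208 and 187. The olfactory markers did not share 1 direction. *Omp*, which marks mature olfactory neurons, was at 0.641, 30.3 and 29.9 CPM in E15.5 replicates 1, 2 and 3. *Cnga2* (0.371, 10.9 and 10.9 CPM) and *Cnga4* (0.202, 3.16 and 2.47 CPM) were also lowest in replicate 1. *Gnal* went the other way, with 101, 61.9 and 49.9 CPM, and made up most of the sum in replicate 1. All 10 olfactory markers were above the floor in each E15.5 library. Choroid plexus markers in E15.5 replicate 1 summed to 41.3 CPM against 129 and 121. Among the secretory markers, *Scgb1a1* and *Obp2a* were at 0 in it. Transcripts of the 4 Y-linked genes had 20 counts in it, against 3707 and 11083 in the other E15.5 libraries. The part of these tissues and of the share of males in the members' levels was not tested.

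P0 replicate 2 was the highest of its stage in 45 of the 47 genes, again all but *Tekt5* and *Tppp3*, beside 34.1% of all tested genes, and it was the highest of all 15 libraries in 42. It held 1.87 times the level of replicate 1 and 2.17 times that of replicate 3 at the median, against 1.03 and 0.985 over all tested genes. Its choroid plexus markers, at 524 CPM, were the highest of its stage, its epithelial markers, at 3253 CPM, lay between the 1522 and 3553 CPM of the others, and its secretory markers, at 1205 CPM, and olfactory markers, at 132 CPM, were the lowest. Transcripts of the 4 Y-linked genes had 15 counts in it, against 3109 and 2976 in replicates 1 and 3. In E13.5 replicate 1, with 28 such counts, the median member was 1.03 CPM, within the 1.0 to 1.14 CPM of its stage. The part of the share of males in these levels was not tested. Without P0 replicate 2, the contrast of P0 with E13.5 called 45 members.

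No member changed from E15.5 to E16.5 or from E16.5 to P0 in edgeR's quasi-likelihood test at an adjusted p under 0.05. In the same contrasts 1.03% and 0.19% of all genes were called higher, and 0.379% and 0.163% lower. At an unadjusted p under 0.05, 5 members were higher and 1 lower from E15.5 to E16.5, beside 12.2% and 9.64% of all genes, and 2 were higher from E16.5 to P0, beside 5.64%. DESeq2 called 2 members higher from E15.5 to E16.5, *Tppp3* and *Tekt5*, and none from E16.5 to P0. *Tppp3* was at the threshold, with a log2 fold change of 1.24 ± 0.28 (SE), adjusted p = 0.0503 by edgeR's quasi-likelihood test, and passed without E16.5 replicate 3 (1.42, adjusted p = 0.0407). The median log2 change of the 47 genes was 0.39 from E15.5 to E16.5 and 0.47 from E16.5 to P0, against -0.00078 and 0 over all tested genes. Both medians rested on single libraries. Without P0 replicate 2 the change from E16.5 to P0 had a median of 0.0404, with 20 of the 47 genes below 0, and the change from E15.5 to E16.5 had a median of 0.0548 without E15.5 replicate 1 and of 0.20 without E16.5 replicate 1. Every E16.5 library lay above every E15.5 library in 13 genes, beside 15.7% of all genes, and every P0 library above every E16.5 library in 4, beside 6.23%. These tests do not show that the levels were equal.

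The balance among the 47 genes at E15.5 was compared with that of the later stages. Each level was divided by the median member of its own library, which removes the common rise and fall described for E15.5 replicate 1 and P0 replicate 2. This measure shares the E15.5 libraries with the contrast that chose members, and it is given as a description. On this log2 scale 12 genes were lower in all 6 libraries of E16.5 and P0 than in all 3 of E15.5, beside 7.22% of all genes divided by the same medians, namely *Dnah2*, *Dnaaf3*, *Zmynd10*, *Ccdc39*, *Ccdc65*, *Lrrc23*, *Spag17*, *Tekt1*, *Tekt2*, *Cfap52*, *Mns1* and *Cfap206*. Another 8 were higher in all 6, beside 1.79%, namely *Dnah9*, *Dnah6*, *Tekt3*, *Tekt4*, *Tmem212*, *2610028H24Rik*, *Ak7* and *Sntn*. Both shares are a loose reference, because a gene that does not follow the members takes on the spread of their median within a stage when divided by it. *Tekt3*, *Tmem212*, *2610028H24Rik* and *Sntn* of these 8 passed the filter on low counts only through the later stages. *Zmynd10* went from 1.00 ± 0.20 (SD, n = 3) at E15.5 to -0.12 ± 0.19 at E16.5 and -0.23 ± 0.33 at P0. *Lrrc23* went from 2.18 ± 0.23 to 1.28 ± 0.09 and 1.31 ± 0.26. *Sntn* went the other way, from -2.07 ± 0.68 to -0.94 ± 0.05 and -0.70 ± 0.08, and so did *Dnah9*, from 0.04 ± 0.09 to 0.81 ± 0.08 and 1.06 ± 0.04.

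**Figure D5:**
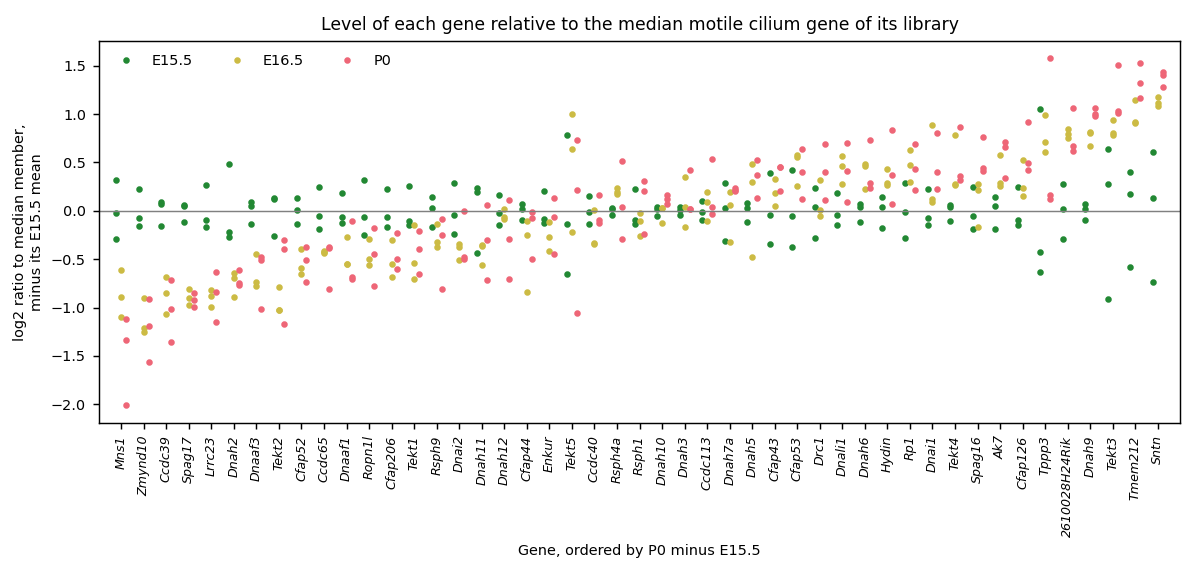
Level of each of the 47 genes relative to the median gene of the same library, as a log2 ratio minus the gene's E15.5 mean, with 1 point for each library of E15.5, E16.5 and P0. Genes are ordered by P0 minus E15.5, from -1.49 for *Mns1* at the low end to 1.37 for *Sntn* at the high end.

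Regulators of the fate of multiciliated cells were compared with the members, in a list of 16 genes that also holds RFX and E2F factors of wider roles. From E14.5 to E15.5, 7 of the 16 were higher and 1 lower (edgeR's quasi-likelihood test, adjusted p under 0.05), beside 12.7% and 13.4% of all genes, with a median log2 fold change of 1.10 against 0.03 over all genes. *Foxj1*, the master regulator of motile ciliogenesis, had 8.81, 12.97 and 9.55 (E13.5), 47.2, 18.3 and 26.6 (E14.5), 81.6, 181 and 197 (E15.5), 122, 91.6 and 82.9 (E16.5), 109.8, 167 and 95.3 (P0) CPM. It stepped up with the members and stayed high, with a log2 fold change from E14.5 to E15.5 of 2.32 ± 0.39 (SE), adjusted p = 0.00226 and from E15.5 to E16.5 of -0.63 ± 0.37 (SE), adjusted p = 0.344 (edgeR's quasi-likelihood test). *Mcidas*, which starts the program of many centrioles, had 0.315, 0.211 and 0.862 (E13.5), 1.95, 0.545 and 1.49 (E14.5), 10.97, 22.9 and 22.6 (E15.5), 2.53, 2.57 and 3.01 (E16.5), 1.61, 4.33 and 2.44 (P0) CPM. *Ccno*, a cyclin-like gene of centriole amplification, had 0.831, 0.535 and 1.54 (E13.5), 3.02, 1.24 and 2.29 (E14.5), 15.9, 36.4 and 38.1 (E15.5), 6.799, 6.501 and 5.06 (E16.5), 5.46, 8.23 and 6.53 (P0) CPM. Both were highest in the 3 E15.5 libraries, with no overlap with any other stage, and both fell from E15.5 to E16.5, by 2.80 ± 0.57 (SE), adjusted p = 0.0413, and 2.30 ± 0.44 (SE), adjusted p = 0.0333, on the log2 scale of edgeR's quasi-likelihood test.

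*Deup1* and *Cdc20b*, which act in the amplification of centrioles, had the same shape. *Deup1* had 0.301, 0.211 and 1.04 (E13.5), 3.16, 0.621 and 2.19 (E14.5), 26.9, 58.4 and 64.5 (E15.5), 13.1, 9.63 and 9.91 (E16.5), 7.6, 16.3 and 9.54 (P0) CPM, and its change from E15.5 to E16.5 was -2.20 ± 0.62 (SE), adjusted p = 0.0848 (edgeR's quasi-likelihood test), which did not pass. *Mcidas* and *Ccno* were the only 2 of the 16 past the threshold from E15.5 to E16.5, beside 0.379% of all genes lower. At an unadjusted p under 0.05, 10 were lower, beside 9.64% of all genes. Neither call was firm. The count was 1 with E15.5 replicate 1 left out, and 0 with E15.5 replicate 2 or 3 or any of the 3 E16.5 libraries left out and in a fit of the 6 libraries alone, while DESeq2 called 8. From E13.5 to P0, 7 of the 16 were higher, *Foxj1*, *Mcidas*, *Ccno*, *Deup1*, *Cdc20b*, *Myb* and *Rfx2*, and 6 were lower, *Rfx3*, *Rfx4*, *Plk4*, *E2f4*, *E2f5* and *Tfdp1*, beside 29.8% and 26.8% of all genes.

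Other genes of the axoneme were also mostly higher at the later stages. Of 54 such genes, 53 were tested. From E14.5 to E15.5, 42 were higher and none lower, beside 12.7% and 13.4% of all genes, with a median log2 fold change of 2.04 against 0.03 over all genes. From E13.5 to P0, 47 were higher and 1, *Nme7* (log2 fold change -0.41 ± 0.16 (SE), adjusted p = 0.0481, edgeR's quasi-likelihood test), was lower, beside 29.8% and 26.8% of all genes. The median over the 53 was 3.69. *Dynlrb2*, a dynein light chain, was the most abundant of them per kb over the later libraries (74.3 CPM per kb), with 0.373, 0.423 and 0.906 (E13.5), 3.32, 0.545 and 1.798 (E14.5), 15.2, 40.2 and 43.1 (E15.5), 48.9, 33.3 and 31.05 (E16.5), 43.6, 77.2 and 39.1 (P0) CPM, and its E15.5 replicate 1 was the lowest of the later libraries. From E15.5 to E16.5 only *Dnah8*, an outer arm heavy chain best known from sperm, changed, with 2.65, 2.55 and 3.64 (E13.5), 3.396, 3.18 and 3.15 (E14.5), 13.6, 21.2 and 18.3 (E15.5), 7.27, 7.497 and 7.49 (E16.5), 4.96, 8.54 and 6.75 (P0) CPM and a log2 fold change of -1.26 ± 0.23 (SE), adjusted p = 0.0284 (edgeR's quasi-likelihood test), a call lost without E15.5 replicate 2 or 3 or E16.5 replicate 1 or 2. A fit without both E14.5 libraries high in choroid plexus markers leaves only replicate 2 at E14.5, so its calls are not set beside these.

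Genes for intraflagellar transport and the BBSome, which serve primary cilia as well, were compared as a list of 29. From E14.5 to E15.5, 3 were higher (*Ift43*, *Ift172* and *Traf3ip1*) and 1 lower (*Kif3a*), beside 12.7% and 13.4% of all genes, with a median log2 fold change of 0.19. The count of 4 became 1 when E14.5 replicate 1, or replicate 2 or 3 of E15.5, was left out. It was 2 without E14.5 replicate 2 and 10 without E15.5 replicate 1. From E13.5 to P0, 7 were higher and 4 lower, beside 29.8% and 26.8% of all genes, with a median of 0.0017, and the count of 11 was 7 without E13.5 replicate 1. *Ift43*, a subunit of the transport train, had 16.4, 17.3 and 18.7 (E13.5), 14.6, 13.2 and 16.5 (E14.5), 18.2, 32.5 and 33.2 (E15.5), 35.7, 27.5 and 27.1 (E16.5), 33.3, 38.5 and 40.97 (P0) CPM, and its early libraries lay close to E15.5 replicate 1. The single X-box site occurred in 13 of the 25 of these genes with a promoter and in 17 of 39 of the other axonemal genes, and pairs in 6 and 5. The forkhead site occurred in none of the 25 and in 1 of the 39, beside 4.05% of all genes.

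The genes whose course over the 15 libraries was most like the median standardized course of the members, outside the list and on a log2 scale, were *6820408C15Rik* (Pearson r = 0.998), *Drc3* (0.998), *1700001C02Rik* (0.997), *Ttc29* (0.997) and *Cfap45* (0.996), of 16203 genes with a mean of at least 1 CPM at E15.5. The libraries share their stages, so these values describe likeness only. *Drc3*, a nexin link protein, had 3.02, 3.198 and 3.02 (E13.5), 8.61, 4.09 and 5.31 (E14.5), 15.8, 40.2 and 40.6 (E15.5), 51.9, 39.8 and 35.5 (E16.5), 50.8, 87.96 and 45.7 (P0) CPM, and *Ttc29* had a mean of 0.159 ± 0.0429 CPM at E13.5 and 18.4 ± 6.53 at P0 (SD, n = 3 each). Among the members themselves the lowest values of r against the median course of the others were 0.20 for *Mns1*, 0.69 for *Tekt5* and 0.71 for *Tekt2*.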

How the data were processed

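Counts of read fragments per gene were deposited by the authors, made with featureCounts 2.0.1 per the file headers, together with each gene's exon length (another deposited column, used for levels per kb). Trimming with cutadapt 3.4 and alignment with HISAT2 2.2.1 to mm10 are named in the submitters' processing notes. Positions are those of the table on GRCm38. A filter on low counts (filterByExpr in edgeR, minimum count 10, by stage) left 22151 genes, which were fitted with TMM normalization in edgeR 4.0.16 (R 4.3.3), 1 coefficient per stage over 15 libraries. Contrasts used the quasi-likelihood test with Benjamini-Hochberg adjustment over all tested genes (threshold 0.05). CPM are counts scaled to TMM-adjusted totals. Alternatives were DESeq2 1.42.0, other scalings and filters, a replicate block, the 6 libraries of a contrast, and leaving out each library. The procedure was tested on simulated data. The members, lists and named-gene rule were chosen with earlier results of these data known. Named were the markers and genes of earlier results, the highest and lowest of each role per kb, the 3 highest early, and up to 10 called per contrast and direction by fold change. *Mns1*, *Ak7*, *Ccdc40*, *Ccdc65* and other members outside this rule were named after their values were seen.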

Additional observations from a re-analysis of the deposited data

How the results depend on the processing

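The count of 46 members higher at P0 than at E13.5 was 45 to 46 under every alternative, with 45 at a filter of a mean of 1 CPM, which drops *Tekt3*, and 45 to 46 without 1 library. From E16.5 to P0 no alternative called a member. From E15.5 to E16.5 DESeq2 called 2 members, and DESeq2's size factors in edgeR, a mean of at least 1 CPM and upper-quartile normalization called 1 each, against 0 to 1 without 1 library. For the 16 regulators in that contrast (2 calls) DESeq2 gave 8, a fit of the 6 libraries alone 0 and fits without 1 library 0 to 1. For the other axonemal genes (1 call) these gave 2, 0 and 0 to 1. For the 29 transport genes from E14.5 to E15.5 (4 calls) DESeq2 gave 9, a mean of at least 1 CPM 7 and the 6 libraries alone 7. Upper-quartile normalization gave 11, and fits without 1 library gave 1 to 10. For P0 against E13.5 (11 calls) fits without 1 library gave 7 to 10. The last alternative leaves only 1 library at E14.5, so its counts, given next, cannot be compared with the main ones. Nothing about the part of choroid plexus RNA is read from them. Without both E14.5 libraries high in choroid plexus markers, an alternative chosen after seeing the data, the E14.5 to E15.5 counts were 21 other axonemal genes, 5 regulators and 0 transport genes.

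Of 480 checks of named members in each contrast, 477 of P0 against E13.5, 453 of E16.5 against E15.5 and 466 of P0 against E16.5 kept their direction and their side of the threshold. The log2 change of *Dnai2* from E15.5 to E16.5 was -0.0195 with upper-quartile normalization. Signs turned without 1 library from E15.5 to E16.5, with a range of -0.46 to 0.0793 for *Cfap206*, -0.41 to 0.26 for *Cfap44*, -0.45 to 0.12 for *Dnaaf1*, -0.61 to 0.20 for *Dnah11*, -0.20 to 0.18 for *Dnai2*, -0.53 to 0.0794 for *Ropn1l*, -0.14 to 0.41 for *Rsph1*, -0.19 to 0.28 for *Rsph9* and -0.44 to 0.13 for *Tekt1*. From E16.5 to P0 the ranges were -0.0206 to 0.63 for *2610028H24Rik*, -0.20 to 0.61 for *Ccdc39*, 0 to 0.73 for *Cfap206*, -0.0126 to 0.58 for *Dnaaf1*, -0.53 to 0.67 for *Dnah12*, -0.13 to 0.88 for *Dnah3*, -0.19 to 0.86 for *Dnah6*, -0.0002 to 0.93 for *Dnai1*, -0.10 to 0.69 for *Dnali1*, -0.18 to 1.02 for *Hydin*, -0.0776 to 0.68 for *Rp1*, -0.14 to 0.68 for *Spag17*, -0.41 to 0.11 for *Tekt5* and -0.0323 to 0.50 for *Zmynd10*. No turned value passed the threshold.

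With the replicate number as a block (replicate block in edgeR), 46 members were called between P0 and E13.5, 1 between E16.5 and E15.5 and 0 between P0 and E16.5. The regulators gave 10 from E14.5 to E15.5, 3 from E15.5 to E16.5, 14 from E13.5 to P0 and 0 from E16.5 to P0, the other axonemal genes 41, 1, 48 and 0, and the transport genes 5, 0, 11 and 0. Same-numbered libraries deviated from their stage means with correlations of -0.30 to 0.55. In all 5 contrasts those of replicate 3 were closest to their own number (0.0382 to 0.55) and those of replicates 1 and 2 were not, so the numbers were not taken as pairs. The early levels of *Sntn*, *Tekt3*, *Tmem212* and *2610028H24Rik* rest on few counts. The E13.5 and E14.5 libraries held 63.65 to 69.02 M counts, more than any later library.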
